A study of Mus musculus with 6 samples.

Results

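Chaperones and heat shock proteins are described here in mouse bone marrow derived macrophages (BMDMs) with and without the tRNA methyltransferase gene Trmt61a. The genes were chosen by symbol, as the rows of the count table whose names begin with Hspa, Hspb, Hspd, Hspe or Hsph, with Dnaja, Dnajb or Dnajc and a number, with Cct2 to Cct8, or that are Tcp1. The pattern matched 75 of the 16519 genes in the table. BMDMs are macrophages grown from bone marrow cells in culture. The study compared 3 libraries labelled KO, from mice of genotype Trmt61a f/f LysmCre, with 3 labelled WT, from Trmt61a f/f mice. Both groups therefore carry the floxed Trmt61a alleles, and the KO group alone carries the Cre transgene, which the myeloid LysM (Lyz2) locus drives. Age, sex, stimulation and culture conditions are not given in the labels. Whether each library stands for its own mouse or culture is not stated, so p-values reflect the spread among libraries, which may be technical. Read counts report RNA level and neither translation nor protein.

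Chaperones bind unfolded or partly folded proteins and keep them from aggregating. HSP70 proteins bind and release short hydrophobic stretches in a cycle driven by ATP, J-domain proteins (the Dnaj genes) bring clients and start ATP hydrolysis, and exchange factors such as HSP110 proteins and Hspbp1 reset the cycle. Each compartment has its own HSP70: Hspa8 and the heat-inducible Hspa1a and Hspa1b in the cytosol, Hspa5 (BiP) in the endoplasmic reticulum (ER), and Hspa9 (mortalin) in mitochondria. The mitochondrial chaperonin Hspd1 (HSP60) with its lid Hspe1 (HSP10), and the cytosolic TCP1 ring of Tcp1 and the Cct subunits, fold proteins inside a chamber. Heat shock factor Hsf1 induces many cytosolic and mitochondrial chaperones when misfolded protein accumulates, and the unfolded protein response induces those of the ER.

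Promoter stretches are shown because these 2 programmes would read different elements, so the sequences mark which members hold the letters of each. RefSeq promoter windows of 300 bases (build GRCm38.p6), ending 50 bases after an annotated start, were found for 63 of the 75 genes, in 82 promoters. The ER stress response element, CCAAT and CCACG with 9 bases between them on either strand, was in the windows of 2 members, Hspa5 and Dnajc3, and in 0.119% of all 32851 promoters. Outside the members it was in those of Hsp90b1 and of 5 of 20 ER folding genes, Calr, Canx, Creld2, Pdia6 and Syvn1, of which Pdia6 is shown. The letters GAANNTTC, the core pair of a heat shock element, were in 13 member genes (15 promoters, 18.3%) and in 7.86% of all promoters. A heat shock element of 3 units, GAA and TTC in alternation with 2 bases between units (GAA, TTC, GAA or TTC, GAA, TTC, either strand), which always contains GAANNTTC, was in 4 members, Dnajb6, Hspd1, Hspe1 and Hsph1 (6 promoters, 7.32%), and in 0.597% of all promoters. The stretches below are 30 bases each, 5′ to 3′ on the gene's strand, with the fixed letters of the motif in capitals. The first 3 hold the ER element, the next 2 the core pair, and the last 3 the element of 3 units.
Hspa5, chr2:34772020-34772049, plus strand: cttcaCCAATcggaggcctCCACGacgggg
Dnajc3, chr14:118937822-118937851, plus strand: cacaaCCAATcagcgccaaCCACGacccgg
Pdia6 (not a member), chr12:17266486-17266515, plus strand: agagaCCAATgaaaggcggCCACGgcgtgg
Hspa1a, chr17:34972242-34972271, minus strand: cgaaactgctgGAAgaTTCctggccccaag
Hspa1b, chr17:34959324-34959353, minus strand: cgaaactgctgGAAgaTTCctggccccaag
Hspd1, chr1:55088050-55088079, minus strand: gccttccgGAAggTTCtaGAAcggaccgtg
Hspe1, chr1:55088051-55088080, plus strand: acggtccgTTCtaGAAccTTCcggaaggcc
Hsph1, chr5:149636279-149636308, minus strand: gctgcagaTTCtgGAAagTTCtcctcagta
The Hspa1a and Hspa1b stretches are identical, and those of Hspd1 and Hspe1 are the same element read from opposite strands, between the starts of a divergent pair of genes. The Hspa5 stretch also overlaps an annotated exon of Hspa5, the Hspd1 and Hspe1 stretches one of Hspd1, and the Hsph1 stretch one of Hsph1. The Hsph1 element begins 14 bases after an annotated start. A match to these letters is a description of the window and no measurement of binding.

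Each library held between 37021855 (WT 1) and 41033179 (WT 3) counted reads, and chaperone genes took 0.602% to 0.622% of them. At this depth 3 counts in a library correspond to 0.0730 to 0.0813 CPM (the usual counts-per-million scale, with library sizes scaled by edgeR's TMM factors). Trmt61a stood at 0.530, 0.755 and 0.539 CPM in KO 1 to 3 and at 4.96, 3.89 and 5.07 CPM in WT 1 to 3 (edgeR, adjusted p = 0.00219), in the direction of the labels. Of the 8 macrophage markers, all were expressed, with Csf1r between 3930 and 5117 CPM, and Lyz2, the locus that carries the Cre, was called lower in KO (edgeR, adjusted p = 0.00735). Libraries KO 1 and WT 2 stood apart from the others of their groups in markers of other cells and of division. The 8 neutrophil markers summed to 1607 CPM in KO 1 and 1617 CPM in WT 2, against 2082 to 2941 CPM in the other 4 libraries. The 10 cell cycle genes summed to 577 and 539 CPM in KO 1 and WT 2, against 691 to 912 CPM in the other 4. In bulk RNA, fewer cells of a type and less RNA per cell cannot be told apart.

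No chaperone gene was called between the genotypes, in a fit where 66 of the 75 genes had enough counts to be tested. edgeR's quasi-likelihood test with Benjamini-Hochberg adjustment over all 12605 tested genes called 4 genes (0.0317%), none of them a chaperone. Every tested member had an adjusted p of 0.999949. DESeq2 and limma voom also called 0 members. At an unadjusted p under 0.05, edgeR listed 3 members, Hspa5, Hspbp1 and Hspb7, all with higher values in KO. Hspb7 entered the fit through its KO counts alone, so its difference was partly fixed by the filter. Without it the count is 2 of 65 members (3.08%), near the 3.1% of all tested genes in either direction (1.46% with higher values in KO). No member passed it with lower values in KO, against 1.64% of all tested genes. In 8 of 66 members (7 of 65, or 10.8%, without Hspb7) the 3 KO and 3 WT values did not overlap, against 8.65% of all genes. In Hspa5, Hspbp1, Hspb7 and Cct5 the KO values lay above the WT values (4 of 66, or 3 of 65 without Hspb7, against 4.05% of all genes). In Dnajc4, Dnajc8, Dnajc12 and Dnajc27 they lay below (4 of 66, against 4.59%).

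Differences across the family lay close to 0 in both directions. Of the tested members, 32 had a log2 fold change (KO minus WT) above 0 and 34 below, with a median of -0.00486. The median over all tested genes was 8.37e-05, with 50% above 0. For 56 of 66 members the 95% interval stayed within 1.5-fold in either direction, against 72.4% of all genes. The other 10 were Dnajb13, Dnaja4, Hspa1l, Hspa1a, Hspa1b, Hspa12a, Hspb1, Hspb7, Dnajc12 and Dnajc24, all at 10 CPM or less in every library. Such an interval bounds the size of a difference and does not show equal levels.

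**Figure D1:**
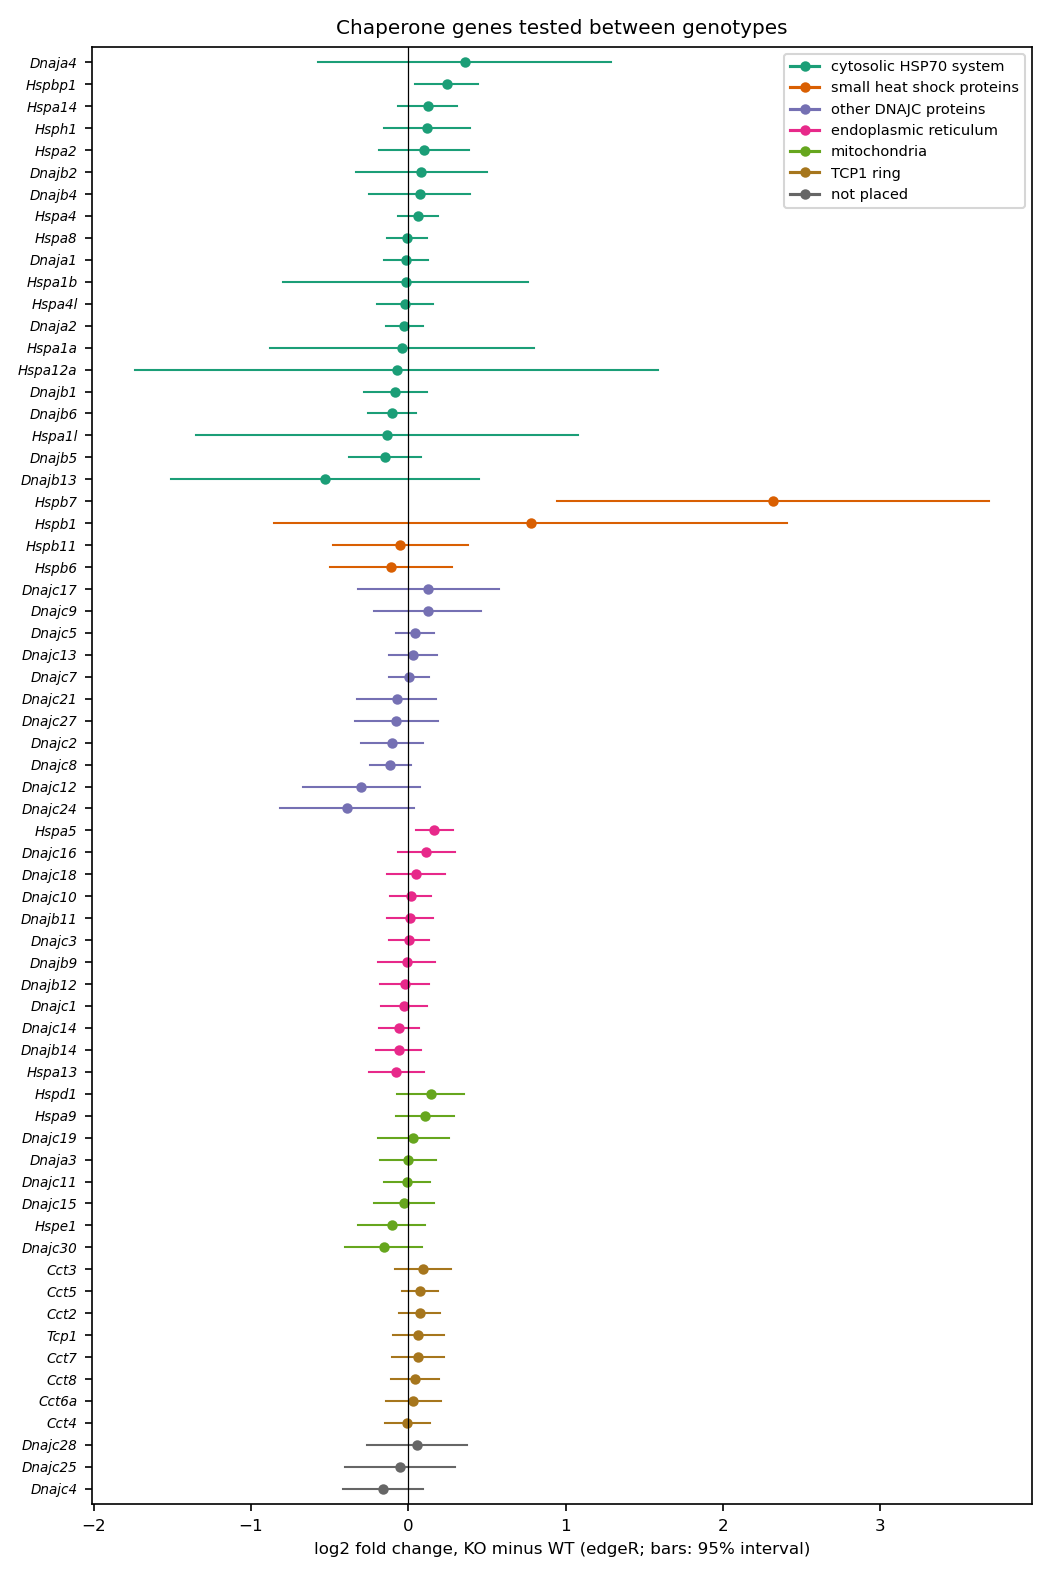
Log2 fold change, KO minus WT, of each of the 66 tested chaperone genes (points, edgeR) with 95% intervals (bars), coloured by class. The points of well-counted genes sit close to 0, and the widest intervals belong to genes with few reads, among them Hspb7 at 2.32.

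The macrophages expressed chaperones of every compartment. Among the genes matched by symbol, Hspa8 and Hspa5 were highest per length. CPM per kilobase of annotated exons averaged 413 ± 10.9 (SD, n = 6 libraries) for Hspa8 and 143 ± 9.30 for Hspa5. Chaperones that the pattern did not match, such as Calr, Hsp90ab1 and Hsp90b1, averaged more than Hspa5, at 332, 293 and 195. The leading TCP1 ring subunit, Cct5, stood at 57.6 ± 2.04 on the same per-kilobase scale, and the leading mitochondrial gene, Hspa9, at 38.8 ± 3.58. Hspd1 followed Hspa9 at 34.9 ± 3.82 and lay below it in every library. With the longest transcript as length, the means were 54.8 for Hspa9 and 38.1 for Hspd1. At the other end, Hspa1b averaged 0.564, Hspb1 0.446 and Hspa1a 0.331 CPM per kilobase. The constitutive cytosolic HSP70 thus exceeded the heat-inducible pair by a wide margin in every library of both genotypes. By share of all reads on chaperone genes, which is not corrected for length, the cytosolic HSP70 system took 41.2%, the ER class 21.7%, the TCP1 ring 15.7%, the other J-domain proteins of the DNAJC family 13.5% and mitochondria 7.28%. Small heat shock proteins took 0.204%.

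**Figure D2:**
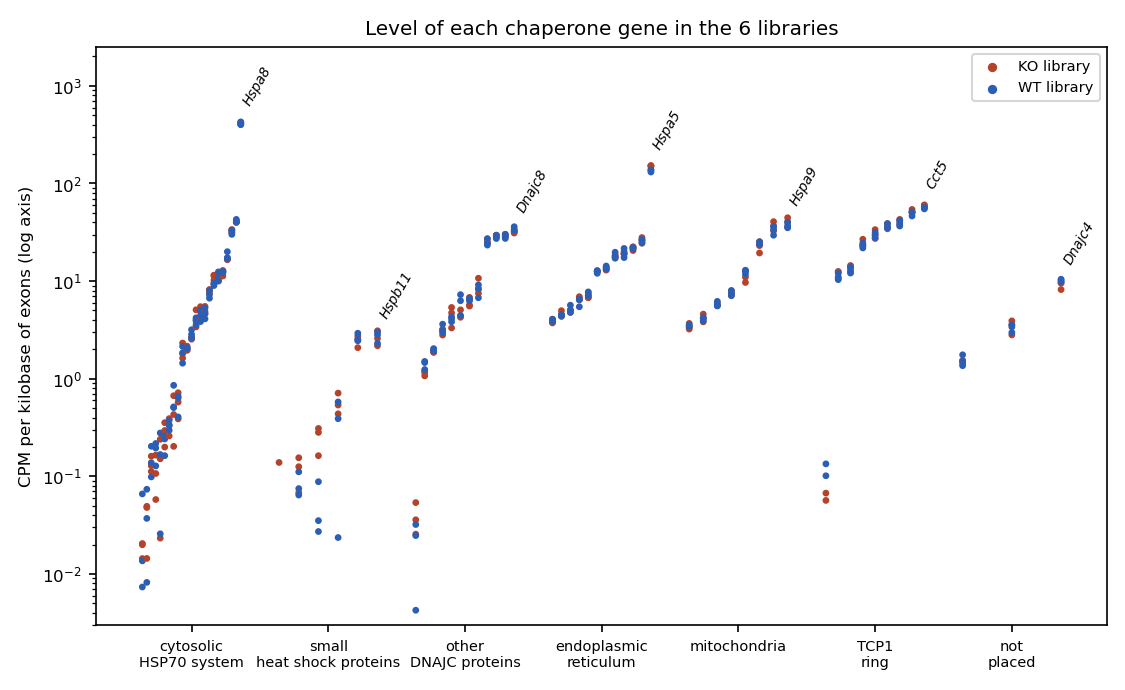
CPM per kilobase of exons (log axis) of each chaperone gene in the 3 KO and 3 WT libraries, one column of points per gene, ordered by mean within each class; the gene with the highest mean is named. Values of 0 and the genes with means under 0.01 are not drawn. The KO and WT points of Hspa8 lie on top of each other, and those of the small heat shock proteins with few reads spread widely.

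In the cytosolic HSP70 system, the most abundant member, Hspa8, had values within the same range in both genotypes, and 1 of 20 tested genes, Hspbp1, had an unadjusted p under 0.05. Of the 20, 8 had a log2 fold change above 0, and the median was -0.02. Hspa8, the constitutive cytosolic HSP70 (chr9:40801276-40805202), measured 1767, 1821 and 1730 CPM in KO 1 to 3 and 1784, 1838 and 1723 CPM in WT 1 to 3. The groups overlapped completely, and the log2 fold change was -0.01 (SE 0.06, 95% interval -0.14 to 0.12). Of the Hspa8 transcript's 50-base stretches, 51.4% also occur in transcripts of other genes, mainly the pseudogene Gm15459, so its count depends on how the authors' counting treated such reads.

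Hspbp1, a nucleotide exchange factor that releases clients from HSP70 (chr7:4660515-4685188), measured 21.4, 19.3 and 21.8 CPM in KO 1 to 3 and 17.8, 17.9 and 17.0 CPM in WT 1 to 3. All KO values lay above all WT values. The group means were 20.8 ± 1.32 and 17.6 ± 0.501 CPM (SD, n = 3 each), a log2 fold change of 0.24 (SE 0.09, 95% interval 0.04 to 0.45, edgeR unadjusted p = 0.0214). An exact permutation test (two-sided) returned p = 0.1, and 3 against 3 libraries cannot give a smaller one. Its unadjusted edgeR p was under 0.05 in 10 of 14 alternative analyses, and was above it without KO 1, without KO 3, without WT 3, and without KO 1 and WT 2 together.

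The heat-inducible HSP70 genes Hspa1a and Hspa1b, neighbours on chromosome 17 with Hspa1l, had under 100 reads in each library. Hspa1a had 29, 46 and 40 reads in KO 1 to 3 and 41, 35 and 41 in WT 1 to 3. Hspa1b had 41, 80 and 66 reads in KO and 42, 71 and 76 in WT. Neither gene separated the groups, and the 95% intervals of the log2 fold change were wide, -0.88 to 0.80 for Hspa1a and -0.80 to 0.76 for Hspa1b. The transcripts share most of their sequence, with 60.4% of the 50-base stretches of Hspa1a and 62.3% of those of Hspa1b found in other genes' transcripts, so the split of reads between the pair is uncertain. Both intervals reach past 1.5-fold in either direction, so a difference of that size in either gene is within what these counts allow.

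Other inducible members of the cytosolic system overlapped between the groups as well. Hsph1, the HSP110 exchange factor that works with HSP70 in disaggregation, measured 30.1, 35.4 and 39.8 CPM in KO and 32.3, 28.0 and 36.7 CPM in WT (log2 fold change 0.12, 95% interval -0.16 to 0.39). Dnajb1, the HSP40 that partners with inducible HSP70, measured 32.2, 32.8 and 35.4 CPM in KO and 39.8, 32.1 and 34.4 CPM in WT (-0.08, -0.28 to 0.12). Its highest value was in WT 1 and the other 5 libraries were close together. Dnajb4, a related HSP40, ranged from 29.8 CPM in KO 1 to 44.5 CPM in KO 3, and the WT values of 31.2 to 36.9 CPM lay inside that range. Hspa4, a constitutive HSP110-type exchange factor, stood between 166 and 186 CPM in all 6 libraries (0.06, -0.07 to 0.19).

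J-domain co-chaperones of the A and B families were likewise similar. Dnaja2, the most abundant of them per kilobase at 40.9 ± 1.10, varied by 2.69% (coefficient of variation) over the 6 libraries. Dnaja1 stood between 97.3 and 111 CPM, with a log2 fold change of -0.02 (95% interval -0.15 to 0.12). Dnajb6, which suppresses aggregation, measured 102, 100.3 and 104 CPM in KO and 121, 102 and 105 CPM in WT (-0.10, -0.26 to 0.05). Here a single high library, WT 1, set the mean of its group apart. Dnajb5 (-0.15, -0.38 to 0.08) and Hspa14, an HSP70 of the ribosome-associated complex (0.12, -0.06 to 0.31), also had intervals that included 0. The 3 genes that were not tested, Dnajb3, Dnajb7 and Hspa12b, had between 1 and 12 reads in each library.

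Small heat shock proteins, which hold unfolded proteins without using ATP, were at the bottom of the range, and 4 of the 7 genes in the table were tested. The 2 best counted, Hspb6 and Hspb11 (an intraflagellar transport protein despite its name), stood between 4.51 and 6.72 CPM in all libraries. Their log2 fold changes were -0.11 (95% interval -0.50 to 0.28) and -0.05 (-0.48 to 0.38), with overlapping groups. Hspb1 (HSP25), the member best known for induction by heat, had 17, 22 and 30 reads in KO and 22, 16 and 1 read in WT. The single read in WT 3 set the WT mean, and the interval ran from -0.85 to 2.41. Of the Hspb1 transcript's 50-base stretches, 51.7% also occur in the pseudogene Hsp25-ps1.

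Hspb7, the small heat shock protein named for its cardiac expression (chr4:141420779-141425310), had 17, 31 and 35 reads in KO 1 to 3 and 9, 3 and 4 reads in WT 1 to 3. All KO values lay above all WT values, at 0.451, 0.781 and 0.857 CPM against 0.244, 0.0753 and 0.0974 CPM. The log2 fold change was 2.32 (SE 0.62, 95% interval 0.95 to 3.69, edgeR unadjusted p = 0.00340, adjusted p = 0.999949). Because Hspb7 passed the low-count filter only through its KO libraries, a gene with this pattern had to differ, and the value is a description. It was absent from the test at a minimum count of 50 and had an unadjusted p under 0.05 in the 13 alternatives that tested it, with log2 fold changes from 2.02 to 2.97. The 8 fibroblast and stromal markers summed to 135, 328 and 261 CPM in KO and to 197, 136 and 213 CPM in WT, with overlapping groups, and their part in the Hspb7 values was not tested. Hspb8, Hspb9 and Hspb2 had at most 12 reads in any library and were not tested.

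**Figure D3:**
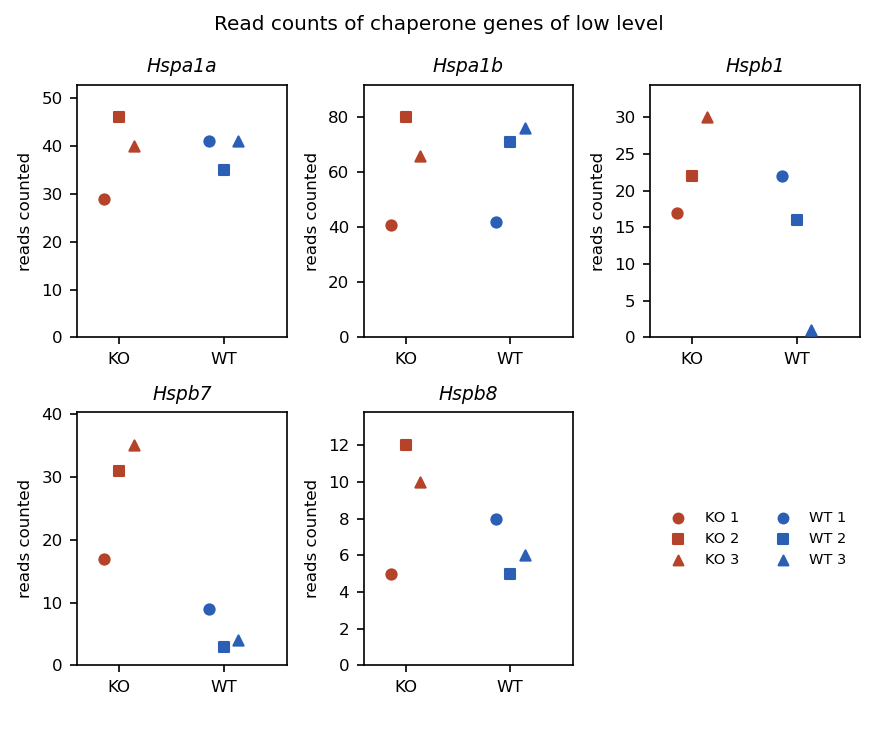
Reads counted per library for Hspa1a, Hspa1b, Hspb1, Hspb7 and Hspb8, with 3 KO and 3 WT points per gene and markers for the replicate number. Only Hspb7 has separate groups, with 17 to 35 reads in KO and 3 to 9 reads in WT.

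In the ER, Hspa5 (BiP) stood higher in every KO library than in every WT library, and the remaining 11 genes of the class overlapped. Hspa5, the ER HSP70 and sensor partner of the unfolded protein response (chr2:34772090-34776529), measured 643, 636 and 644 CPM in KO 1 to 3 and 577, 554 and 583 CPM in WT 1 to 3. The KO mean of 641 ± 3.98 CPM was 112% of the WT mean of 572 ± 15.6 CPM (SD, n = 3 each). The log2 fold change was 0.17 (SE 0.05, 95% interval 0.05 to 0.28, edgeR unadjusted p = 0.0105, adjusted p = 0.999949), and the exact permutation p was 0.1. The gene rests on 21296 to 26298 reads per library, and none of its 50-base stretches occur in another gene's transcript. The log2 fold change stayed between 0.14 and 0.18 in 14 alternative analyses, with an unadjusted p under 0.05 in all 14 and an adjusted p of 0.863 or more. The interval lies within 1.5-fold in either direction, as it did for all 12 genes of the class.

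Because Hspa5 provides the largest share of its reads, the summed ER class also separated, at 1339 to 1364 CPM in KO and 1284 to 1298 CPM in WT. The median log2 fold change of the 12 ER genes was -0.00180, with 6 above 0 and 6 below. Dnajc3 (P58IPK), an ER J-domain protein whose promoter window holds the same element as that of Hspa5, measured 115, 106 and 115 CPM in KO and 111, 113 and 110.0 CPM in WT (log2 fold change 0.01, 95% interval -0.12 to 0.13). Dnajb9 (ERdj4), a J-domain protein strongly induced by the unfolded protein response, measured 50.8, 48.3 and 48.4 CPM in KO and 49.0, 55.1 and 44.4 CPM in WT (-0.01, -0.19 to 0.17). Both genes therefore overlapped where Hspa5 did not. Dnajb11 (ERdj3), which binds clients together with BiP, had a log2 fold change of 0.01 (-0.13 to 0.16), and Dnajc10 (ERdj5), a disulfide reductase, of 0.01 (-0.12 to 0.15). Of the remaining genes, Dnajc16 had the largest value at 0.11 (-0.07 to 0.30) and Hspa13 the lowest at -0.08 (-0.25 to 0.10).

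Partners of Hspa5 in the ER, which the symbol rule did not match, were read from a list of 24 folding factors and unfolded protein response genes. None of the 24 was called (edgeR, DESeq2 and limma voom were run on all genes), 4 had an unadjusted edgeR p under 0.05 (16.7%, against 3.1% of all tested genes), and 15 had a log2 fold change above 0, with a median of 0.03. In 7 of the 24 (29.2%, against 8.65% of all tested genes) the groups did not overlap, 3 with KO above WT and 4 with KO below. The list was chosen with earlier results known, and these shares are descriptions. Hyou1, the ER exchange factor for BiP, measured 125, 124 and 132 CPM in KO and 115, 109 and 118 CPM in WT (log2 fold change 0.16, 95% interval 0.03 to 0.28). Pdia6, a disulfide isomerase that binds BiP and whose promoter stretch is shown above, measured 192, 195 and 203 CPM in KO and 179, 169 and 180.4 CPM in WT (0.16, 0.04 to 0.28). In both genes the KO values lay above the WT values. The third such gene was Ddit3 (CHOP), a transcription factor of prolonged ER stress, at 16.3, 16.0 and 16.9 CPM in KO and 15.2, 14.5 and 15.5 CPM in WT (0.12, -0.08 to 0.33). Sdf2l1, a cofactor of BiP and ERdj3, had a log2 fold change of 0.21 (0.04 to 0.38) with groups that overlapped.

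Not all genes of this list had higher values in KO. Herpud1, a degradation factor induced by ER stress, measured 93.4, 87.5 and 86.2 CPM in KO and 94.5, 102 and 98.2 CPM in WT, with all KO values below all WT values (log2 fold change -0.14). Creld2, Syvn1 and Sil1 also had KO below WT, with log2 fold changes of -0.04, -0.05 and -0.10. The promoter windows of Creld2 and Syvn1 hold the same element as those of Pdia6 and Hspa5, and those of Calr and Canx, whose groups overlapped, hold it too. Hsp90b1 (GRP94), the ER HSP90, measured 783, 808 and 836 CPM in KO and 794, 744 and 764 CPM in WT, with overlap (0.08, -0.05 to 0.20). Unadjusted p-values of Hyou1, Pdia6, Sdf2l1 and Herpud1 were under 0.05 in 11, 12, 11 and 7 of 14 alternatives.

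**Figure D4:**
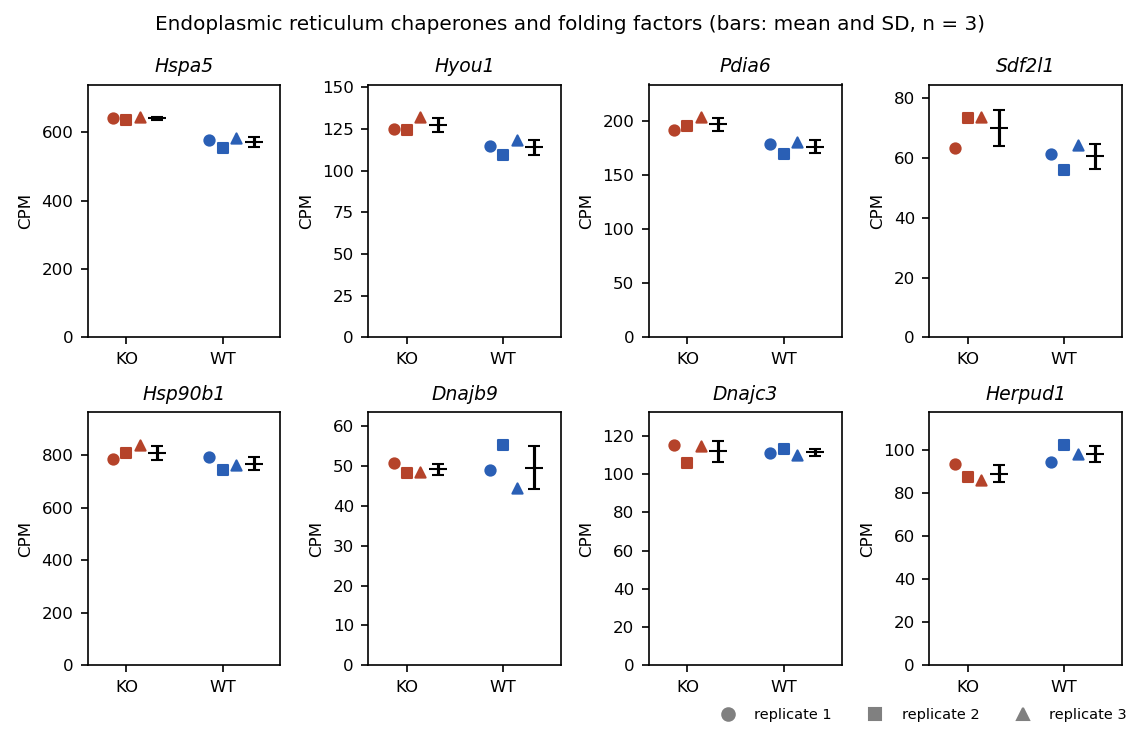
CPM of Hspa5 and 7 other ER chaperones and folding factors in each KO and WT library, with bars at the mean and SD (n = 3 each). For Hspa5, Hyou1 and Pdia6 the KO points sit above the WT points, for Herpud1 below, and for Sdf2l1, Hsp90b1, Dnajb9 and Dnajc3 they overlap.

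In mitochondria, none of the 8 genes separated the genotypes or had an unadjusted p under 0.05, and all 8 intervals stayed within 1.5-fold. Hspa9, the mitochondrial HSP70 that pulls in and folds imported proteins, measured 154, 174 and 192 CPM in KO and 159, 152 and 172 CPM in WT (log2 fold change 0.11, 95% interval -0.08 to 0.29). Hspd1, which forms the HSP60 chamber, measured 86.3, 96.5 and 107 CPM in KO and 89.1, 77.9 and 96.0 CPM in WT (0.14, -0.07 to 0.35). In both genes KO 1 was the lowest KO library and WT 2 the lowest WT library. Without KO 1, both had an unadjusted edgeR p under 0.05, with log2 fold changes of 0.19 for Hspa9 and 0.22 for Hspd1, and so had Dnajc30 in the opposite direction, at -0.27. In that fit 5.34% of all tested genes had such a p in either direction, against 3.1% with all 6 libraries. Hspe1, the lid of the chamber, was also lowest in KO 1 and WT 2 of its groups. Its highest KO value was in KO 2, and that of Hspd1 was in KO 3. Hspe1 measured 28.6, 37.3 and 34.0 CPM in KO and 35.3, 35.0 and 37.3 CPM in WT (-0.11, -0.32 to 0.11).

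Hspd1 and Hspe1 share a start region, and their annotated exons overlap by 112 bases on opposite strands. Of the Hspd1 transcript's 50-base stretches, 44.8% also occur in other genes' transcripts, mainly Hspd1-ps3, against 8.20% for Hspe1. Of the mitochondrial J-domain proteins, Dnajc19 and Dnajc15, which act at the import motor, had log2 fold changes of 0.03 and -0.03, Dnaja3 (TID1) of -0.00 and Dnajc11 of -0.01. Dnajc30 had the largest log2 fold change of the class in either direction. It was lowest in KO 3 at 16.1 CPM and highest in WT 2 at 21.4 CPM, with groups that overlapped (-0.16, -0.40 to 0.09). Of 12 further genes of mitochondrial protein quality control, 0 had an unadjusted edgeR p under 0.05, and their median log2 fold change was 0.06.

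Among the 8 tested subunits of the TCP1 ring, which folds actin, tubulin and many other proteins, 7 had a log2 fold change above 0, with a median of 0.06 and a range from -0.01 to 0.09. No subunit had an unadjusted edgeR p under 0.05, and all 8 intervals stayed within 1.5-fold. Cct5 (chr15:31590800-31601846) measured 167, 165 and 158 CPM in KO and 158, 156 and 152 CPM in WT. It was the 1 subunit whose KO values all lay above the WT values, by a narrow margin at KO 3 and WT 1 (0.07, -0.04 to 0.19). Cct2 measured 130, 130 and 139 CPM in KO and 119, 129 and 130 CPM in WT (0.07, -0.06 to 0.20). Cct3 had the largest log2 fold change at 0.09 (-0.09 to 0.27), with 67.9, 78.8 and 80.0 CPM in KO and 70.1, 65.95 and 76.6 CPM in WT. Tcp1, Cct7, Cct8 and Cct6a followed at 0.06, 0.06, 0.04 and 0.03, and Cct4 stood at -0.01.

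Because each layer of the ring holds every subunit type, the levels of the 8 genes are given side by side. Per kilobase of exons, the means over 6 libraries ran from Cct5 at 57.6 and Cct2 at 50.6 through Cct8 at 39.9, Cct4 at 36.5, Cct6a at 29.98 and Tcp1 at 23.8 to Cct7 at 13.3 and Cct3 at 11.5 CPM per kilobase. The order rests on the length used. With the longest transcript as length, Cct5 (86.0) and Cct2 (66.1) still led, Cct4 (61.7) passed Cct8 (51.4), and Cct7 (23.2) and Cct3 (21.95) remained the lowest. Cct6b, the testis form of Cct6a, had at most 10 reads in any library and none in KO 3 and WT 3, and was not tested. Summed over the class, the KO libraries held 974 ± 33.1 CPM and the WT libraries 940 ± 27.2 CPM (SD, n = 3 each), with overlap. Leaving out 1 library moved the median log2 fold change of the ring between 0.02 (without KO 3) and 0.10 (without WT 3), with 0.03 without WT 2. Prefoldin hands clients to the ring. Of 10 genes on a list of prefoldin subunits and other ring partners, 8 had a log2 fold change above 0 (median 0.07). The 1 gene with an unadjusted edgeR p under 0.05 (10%, against 3.1% of all tested genes) was Pfdn2, at 30.2, 31.3 and 31.7 CPM in KO and 28.4, 25.7 and 27.5 CPM in WT, with no overlap (log2 fold change 0.19). Txndc9 also had no overlap, with KO below WT, at 5.37, 4.89 and 5.33 CPM per kilobase in KO and 5.50, 5.52 and 5.40 in WT. Genes without overlap were thus 20% of the list, 1 in each direction, against 8.65% of all tested genes. This list too was chosen with earlier results known, and its shares, which rest on single genes, are descriptions.

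The other DNAJC proteins of cytosol, nucleus and vesicles had 3 of 11 tested genes (27.3%) with KO below WT. The count was 4 of 66 over all tested members, and the share of all tested genes was 4.59%. None of the 11 had an unadjusted edgeR p under 0.05. The classes were chosen with earlier results known, and the share is a description. Dnajc8, which associates with the spliceosome, measured 79.3, 82.6 and 81.1 CPM in KO and 92.1, 86.3 and 84.4 CPM in WT (log2 fold change -0.11, 95% interval -0.24 to 0.02). Dnajc12 measured 5.38, 4.78 and 5.17 CPM in KO and 5.56, 6.73 and 6.55 CPM in WT (-0.30, -0.67 to 0.07). Dnajc27 separated by a narrower margin, at 9.49 to 9.72 CPM in KO and 9.79 to 10.4 CPM in WT (-0.08). Dnajc24, which acts in diphthamide synthesis on elongation factor 2, had the lowest log2 fold change of the class at -0.39 (-0.82 to 0.03). It measured 5.83, 6.95 and 5.997 CPM in KO and 9.95, 6.08 and 8.62 CPM in WT, and WT 2 lay inside the KO range.

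The best counted of this class did not separate. Dnajc13, which acts in endosome sorting, stood between 279 and 325 CPM (0.03), Dnajc5 (CSP alpha), of secretory vesicles, between 190 and 206 CPM (0.04), and Dnajc7 between 133 and 147 CPM (0.00). Dnajc2, the ribosome-bound partner of Hspa14, had a log2 fold change of -0.11 (-0.30 to 0.09). Dnajc9, a histone chaperone, was at 17.8, 19.6 and 25.4 CPM in KO and 19.9, 16.0 and 21.7 CPM in WT, with KO 1 and WT 2 lowest (0.13, -0.22 to 0.47). Of 4 members that were placed in no class, Dnajc4 measured 10.2, 11.8 and 11.9 CPM in KO and 13.0, 12.7 and 12.3 CPM in WT, all KO below all WT (-0.16, -0.42 to 0.09). Dnajc28 and Dnajc25 overlapped, at 0.05 and -0.05. Dnajc22, with 2 reads in all 6 libraries together, and Dnajc6, with 1 to 13 reads per library, were not tested.

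HSP90 genes and the heat shock factor, which the symbol rule does not match, gave the setting of the cytosolic members. Hsp90ab1, the constitutive cytosolic HSP90, measured 799, 896 and 940 CPM in KO and 898, 819 and 929 CPM in WT (log2 fold change -0.01, 95% interval -0.17 to 0.16). Hsp90aa1, the inducible form, measured 151, 196 and 221 CPM in KO and 187, 155 and 212 CPM in WT (0.04, -0.39 to 0.46). Hsf1 itself stood between 18.1 and 24.7 CPM, with overlap (0.06). In a list of 19 heat-inducible Hsf1 targets, 11 of them chaperones of the families above, 0 were called and 0 had an unadjusted edgeR p under 0.05, with 8 log2 fold changes above 0 and a median of -0.01. Of 24 co-chaperones of HSP70 and HSP90, 0 had an unadjusted edgeR p under 0.05, with 12 above 0 and a median of -0.00.

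Several of these genes differed between libraries of the same genotype, in a shared order. KO 1 was the lowest KO library and WT 2 the lowest WT library for 19 of 66 tested members (28.8%), against 20.9% of all tested genes. The order held for 4 of 8 mitochondrial genes, 4 of 8 TCP1 ring genes, 7 of 20 genes of the cytosolic system, and 1 of 12 ER genes. In other lists it held for all 4 HSP90 genes, 12 of the 19 heat-inducible targets and 9 of the 10 cell cycle genes. It also held for 12 of the 24 co-chaperones and for 9 of the 24 ER folding and unfolded protein response genes (37.5%). It held for 2 of 10 prefoldin and ring partner genes, 2 of 12 genes of mitochondrial protein quality control and 0 of 4 heat shock factors and regulators. The lists are not separate, as every heat-inducible target is also a member or in the HSP90 or co-chaperone list. The count was made after the values had been seen, and the same 2 libraries were lowest in neutrophil and cell cycle markers. The part of cell composition and division in these values was not tested.

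The spread is plain in the class averages. As a mean log2 deviation from the 6-library mean, HSP90 genes stood at -0.16 in KO 1, 0.04 in KO 2 and 0.15 in KO 3, and at 0.01, -0.13 and 0.09 in WT 1 to 3. Cell cycle genes stood at -0.45, 0.14 and 0.42 in KO and at -0.09, -0.42 and 0.40 in WT. The mean of the 12 ER members moved less, from -0.04 to 0.04 over all 6 libraries, and opposite shifts of single genes cancel in such a mean. The median coefficient of variation of the ER members was 5.12%, against 6.71% for the TCP1 ring, 7.86% for mitochondria and 10.4% for the cytosolic system. Over all tested genes it was 8.96%, and over those above 10 CPM, where all tested ER, ring and mitochondrial members lie, it was 6.68%. The cytosolic system also holds tested genes far below 10 CPM, such as Hspa12a (63.1%) and Dnajb13 (41.6%). Its median is therefore not matched in level to those of the other classes. With KO 1 and WT 2 both left out, 0 members were called, Hspa5 had an unadjusted edgeR p under 0.05 and Hspbp1 did not.

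**Figure D5:**
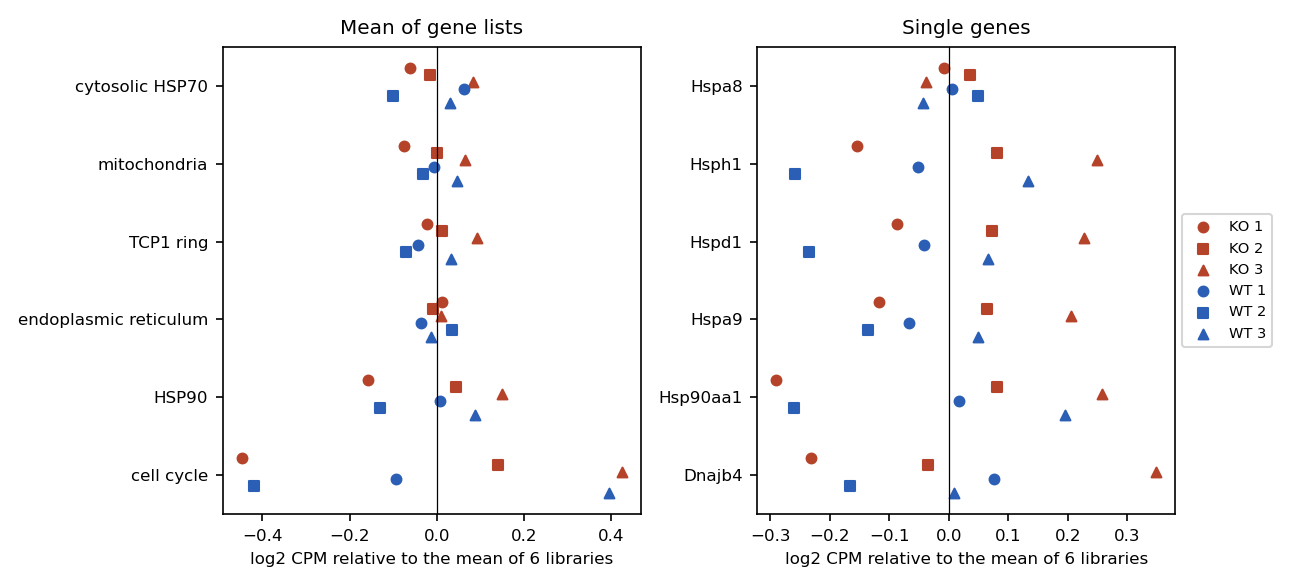
Mean log2 CPM of each class, and of single genes, in each library relative to the mean of the 6 libraries, with colours for genotype and markers for replicate number. Cell cycle and HSP90 genes spread widely within a genotype, with KO 1 and WT 2 at the low end, and the mean of the ER genes lies between -0.04 and 0.04.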

How the data were processed

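RNA of 6 BMDM libraries (3 KO, 3 WT) was sequenced. The authors' processing named fastp, HISAT2, HTSeq and the build mm10, per the submitters' processing notes; versions, order and strand setting were not given in the sources used here. Raw counts per gene make up the deposited table, and groups were read from the titles. Genes were filtered with filterByExpr (minimum count 10) and tested with edgeR 4.0.16 (quasi-likelihood, TMM, robust, KO minus WT, no covariate) in R 4.3.3, with Benjamini-Hochberg adjustment over 12605 genes and a threshold of 0.05. CPM use TMM-scaled library sizes. Levels between genes are CPM per kilobase of merged GENCODE M21 exons, and sequence shared with other genes was found as exact 50-base matches between transcripts. Promoters and gene positions are from RefSeq (GRCm38.p6, the assembly also called mm10).

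Members, classes and gene lists were chosen with earlier results of these data known. The text names every TCP1 ring gene, up to 6 genes per class with the smallest p and up to 4 with the highest level, a fixed set of well-known chaperones and up to 4 genes per other list; further genes were named after their values were seen. The alternatives were other size factors, other filters, DESeq2 1.42.0, limma voom (3.58.1), a replicate block, leaving out each library, and leaving out KO 1 and WT 2. Replicates differed by 9.99 to 29.4 in chi-square per degree of freedom, so none is a repeat deposit. With 3 libraries a group, the smallest exact permutation p is 0.1.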

Additional observations from a re-analysis of the deposited data

How the results depend on the processing

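In all 14 alternatives 0 members were called. Over all tested genes, 4 genes were called, 17 with DESeq2 and 8 with the replicate block, and 3 to 5 when 1 library was left out. Same-numbered KO and WT libraries deviated together with r = 0.03, -0.13 and 0.25. KO 1 and WT 2 had the highest r (0.30), and the block called 0 members. Deviations from a mean of 3 libraries are tied to one another, so these values cannot decide whether the replicate numbers pair the libraries. Members at an unadjusted p under 0.05 with lower values in KO numbered 0, 0 to 1 when 1 library was left out, and 2 without KO 1 and WT 2 together (Dnajb13 and Dnajc24). Those with higher values, Hspb7 included, numbered 2 to 4 over the single-library exclusions. The share of all tested genes at that threshold, in either direction, was 3.1% with all 6 libraries. It was 2.36% to 5.34% when 1 library was left out and 4.28% without KO 1 and WT 2 together. The median of the other DNAJC proteins, -0.07, was -0.0323 with no low-count filter, -0.0344 with DESeq2 and -0.0823 to 0.0157 when 1 library was left out, and that of the unplaced genes ran from -0.140 to -0.0163 over the same exclusions. The median of the small heat shock proteins, 0.36, was -0.08 at a minimum count of 50, which leaves fewer of its genes. The 0.36 rests on 4 tested genes, among them Hspb7 (2.32), which passed the filter through KO alone. Hspb1 (0.78) had 1 read in WT 3, and Hspb6 and Hspb11 stood at -0.11 and -0.05. This median is therefore no measure of the class. The signs of up to 14 members turned in an alternative, none with a log2 fold change over 0.14. With the longest transcript as length, a choice made after the data were seen because RefSeq transcript lengths were not used here, CPM per kilobase was 563 for Hspa8, 165 for Hspa5, 54.8 for Hspa9, 11.1 for Dnajc4, 45.9 for Dnajc8, 3.68 for Hspb11 and 86.0 for Cct5. The cause of these shifts was not tested, other than that fewer libraries or other genes entered the fit. Depth limits the genes under about 100 reads, such as Hspa1a and Hspb1.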
